A study of Homo sapiens with 12 samples.

Results

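The genes described here are ESRP1 and 9 regulators and markers of the epithelial and mesenchymal states: its paralog ESRP2, the epithelial transcription factors GRHL2, OVOL1 and OVOL2, the mesenchymal transcription factors ZEB1, ZEB2, SNAI1 and SNAI2, and the intermediate filament gene VIM. They are 10 of the 26485 genes counted by RNA sequencing of spheroids of the established DU145 line, from human prostate cancer. The set was chosen by its leading gene, whose read counts were lower in both transfected lines than in their parent, and the question was whether its partners followed. The values of ESRP1 against the parent line are therefore a description and were not tested.

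All samples came from cells in which the α2 integrin gene (ITGA2) had been targeted with CRISPR-Cas9. DU145KO cells carried no further transfection, DU145KO+α2 cells carried α2 integrin cDNA in the pawneo2 expression vector, and DU145KO+vector cells carried the same vector without the cDNA. Each line was sequenced as 4 replicates after 72 hours in serum-free medium, with 8000 cells in a spheroid. According to the study's methods the edited cells were selected by their green fluorescent protein and the transfected lines were grown with geneticin, so that DU145KO is the only line without the vector and without this selection. The methods describe a single derivation of each line, and an effect of the transfection, the antibiotic or the founding cells cannot be told apart. The source of the replicates is not stated in the labels beyond a number, and the p-values measure the spread between these samples.

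The transition between epithelial and mesenchymal states is controlled by factors that repress each other. ZEB and SNAI proteins bind E-box sequences in the promoters of epithelial genes such as CDH1 and repress them, while GRHL2 and OVOL proteins sustain epithelial genes and repress ZEB1. ESRP1 and ESRP2 are RNA-binding proteins of epithelial cells that set the splicing of a shared group of exons, and in carcinoma cells ESRP1 is a known target of repression by ZEB1. DU145 cells are epithelial carcinoma cells that also make vimentin.

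The libraries held 13948734 to 19988111 reads assigned to genes, and a count of 3 corresponded to between 0.150 and 0.215 CPM (counts scaled to library size by TMM). ITGA2 lay between 15.7 and 25.8 CPM in DU145KO, between 13.0 and 20.2 CPM in DU145KO+vector and between 259 and 332 CPM in DU145KO+α2. Gene-level counts of an edited gene do not show whether protein is made. The epithelial markers CDH1, EPCAM, KRT8 and KRT18 were all present, with a summed level of 1025 to 1372 CPM in DU145KO, 686 to 963 CPM in DU145KO+α2 and 923 to 1175 CPM in DU145KO+vector. Of 9 markers of leukocytes, endothelium and fibroblasts, only PECAM1 and KDR passed the filter on low counts, and PTPRC, CD3E, DCN and LUM reached at most 1 count in any sample. KDR was higher in DU145KO+α2 (29 to 48 counts) than in DU145KO+vector (10 to 23 counts), with a log2 fold change of 1.14 ± 0.29 (SE) and an adjusted p of 0.0183. DU145KO had 23 to 50 counts, and DU145KO+α2 did not differ detectably from it (adjusted p = 0.943). The part of other cells in the results was not tested, and in these bulk samples fewer cells of a type and less RNA per cell cannot be told apart.

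ESRP1 (chr8:94641074-94707466, plus strand, GRCh38) was the member with the widest difference between the lines. It measured 4.43, 5.86, 6.20 and 4.33 CPM in replicates 1 to 4 of DU145KO. The 4 samples of DU145KO+α2 had 0.559, 0.400, 0.295 and 0.382 CPM, and those of DU145KO+vector had 0.388, 0.646, 0.805 and 0.757 CPM. Every transfected sample lay below every DU145KO sample. The values rest on 67 to 101 reads per DU145KO sample, 5 to 9 per DU145KO+α2 sample and 7 to 14 per DU145KO+vector sample, so that the transfected lines stood above the floor of 3 counts but close to it. The fitted log2 fold change was -3.65 ± 0.26 (SE), or 12.6-fold lower, in DU145KO+α2 and -3.00 ± 0.24, or 8.01-fold lower, in DU145KO+vector. Both figures share the DU145KO samples.

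Whether ESRP1 differed between the transfected lines was not used to choose the genes and was tested. In DU145KO+α2 the level differed from that in DU145KO+vector by -0.65 ± 0.33 on the log2 scale, with a 95% interval of -1.36 to 0.06 and an adjusted p of 0.245 (edgeR's quasi-likelihood test, Benjamini-Hochberg adjustment over 14732 genes). The samples of the 2 lines overlapped, and replicate 1 went the other way from replicates 2, 3 and 4. A difference between them was not detectable at this depth.

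**Figure D1:**
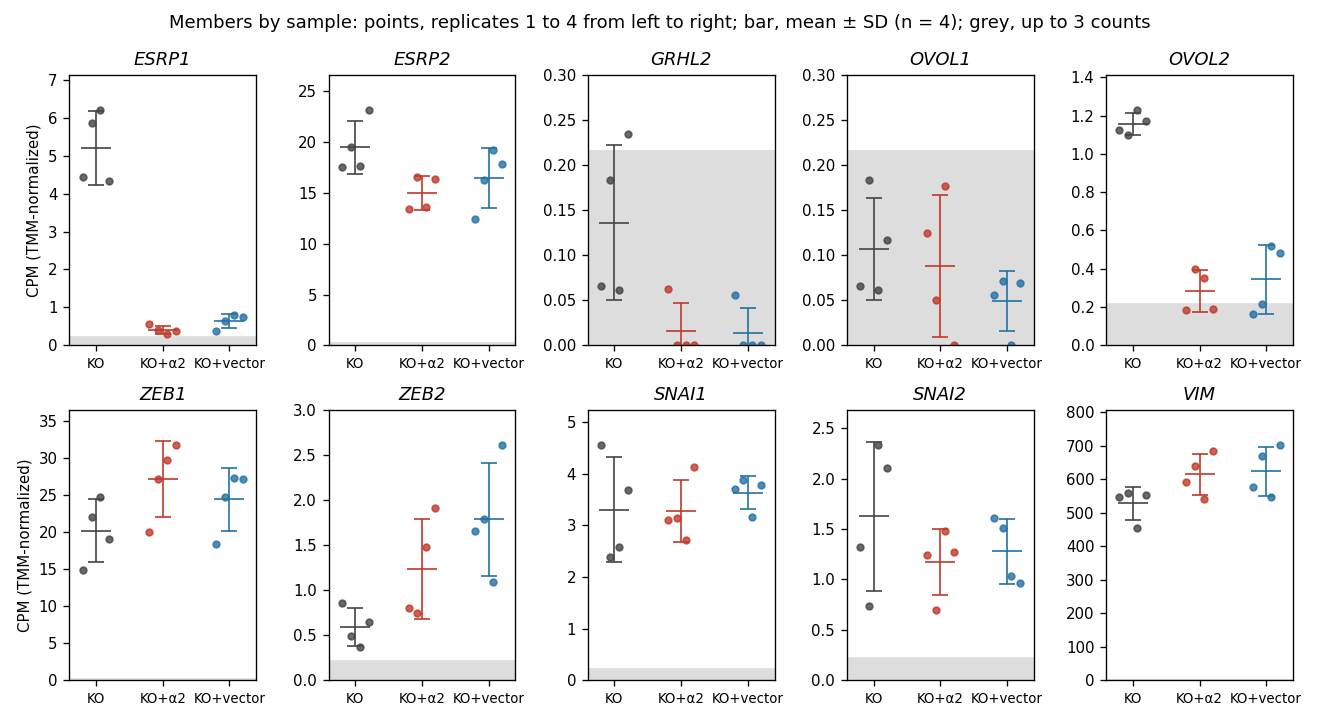
TMM-normalized CPM of the 10 genes in each sample of the 3 lines on linear axes that start at 0, with replicates 1 to 4 from left to right, the mean and the SD (n = 4); grey marks levels up to 3 counts in the shallowest library. ESRP1 and OVOL2 of the transfected lines lie below all DU145KO samples, GRHL2 and OVOL1 lie in or next to the grey band, and VIM stays between 455 and 702 CPM.

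ESRP2 (chr16:68229033-68238102, minus strand), which shares most target exons with ESRP1, remained expressed in every sample. It measured 17.6, 19.5, 17.7 and 23.2 CPM in DU145KO replicates 1 to 4. The DU145KO+α2 samples had 13.5, 16.6, 13.6 and 16.3 CPM, and the DU145KO+vector samples 12.5, 16.3, 19.3 and 17.9 CPM. All DU145KO+α2 samples were below all DU145KO samples, while the DU145KO+vector samples overlapped both lines. Against DU145KO the log2 fold change was -0.38 ± 0.14 in DU145KO+α2, with a 95% interval of -0.67 to -0.09 and an adjusted p of 0.108, and ESRP2 was called lower only with the replicate number as a block (adjusted p = 0.00769, lower in 4 of 4 pairs). In DU145KO+vector it was -0.24 ± 0.14, with an adjusted p of 0.434, and 0.103 with the block.

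On the deposited RPKM scale, which divides by gene length and allows levels of different genes to be set side by side, ESRP2 exceeded ESRP1 in all 12 samples. The ratio of ESRP2 to ESRP1 was 2.70 to 5.07 in DU145KO, 22.8 to 43.7 in DU145KO+α2 and 22.4 to 30.4 in DU145KO+vector. ESRP1 made up 22.2% ± 4.50 (SD, n = 4) of the summed RPKM of both genes in DU145KO. Its share was 2.83% ± 0.917 in DU145KO+α2 and 3.93% ± 0.509 in DU145KO+vector. The summed RPKM of the pair fell less than ESRP1 itself, from a mean of 6.16 in DU145KO to 3.84 and 4.26 in the transfected lines, and part of that description is the value that chose the set.

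The calls over the other members were few without the replicate block, and more were made with it. Both are read against the share of all tested genes called at an adjusted p below 0.05. Between DU145KO+α2 and DU145KO+vector, 0 of the 8 members tested were called by edgeR, limma or DESeq2, and 0 had an unadjusted p below 0.05, while 11.9% of all genes were called. Between DU145KO+α2 and DU145KO, 1 of 7 members (OVOL2) was called against 8.17% of all genes. Between DU145KO+vector and DU145KO, 2 of 7 (OVOL2 and ZEB2) were called against 2.34% of all genes. With the replicate block the counts were 0 of 8, 5 of 7 and 4 of 7, at a background of 26.5%, 22.3% and 13.4% of all genes. GRHL2 and OVOL1 did not pass the filter on low counts. OVOL2 passed it only through the DU145KO samples and ZEB2 only with samples of the transfected lines, where each was higher.

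**Figure D2:**
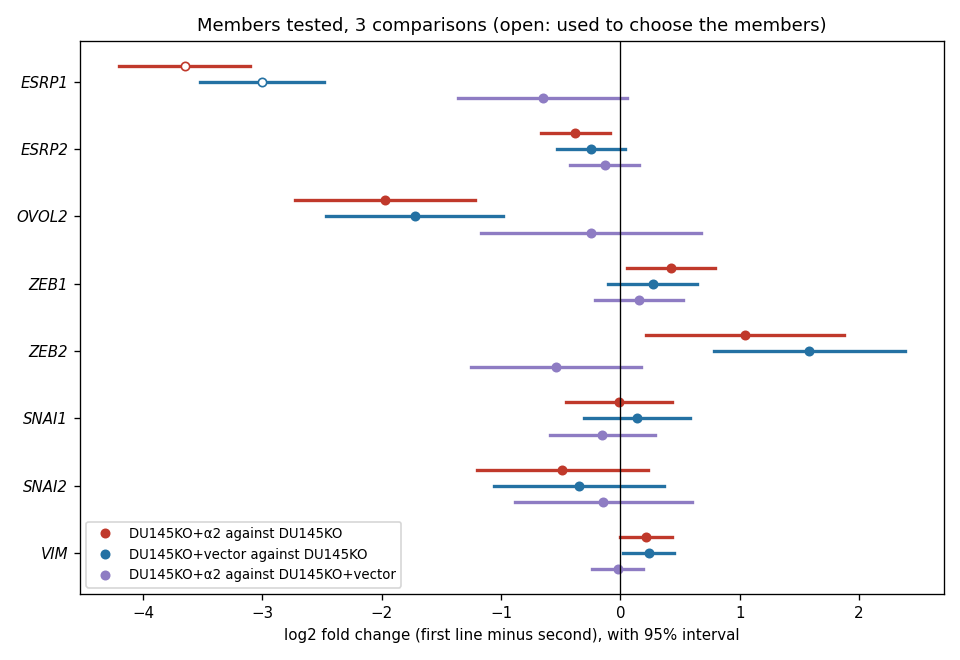
Log2 fold change of the 8 members tested, with 95% intervals, in 3 comparisons without the replicate block; open circles mark ESRP1 against DU145KO, which chose the set. OVOL2 lies at -1.97 and -1.72 and ZEB2 at 1.05 and 1.58 in the comparisons with DU145KO, and the intervals of DU145KO+α2 against DU145KO+vector all include 0.

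OVOL2 (chr20:17956979-18059188, minus strand), a zinc finger repressor of ZEB1 in epithelial cells, was the member that followed ESRP1 in both lines. DU145KO samples had 1.12, 1.10, 1.23 and 1.17 CPM, from 17 to 20 reads each. DU145KO+α2 samples had 0.186, 0.400, 0.354 and 0.191 CPM, and DU145KO+vector samples had 0.166, 0.215, 0.517 and 0.482 CPM, from 3 to 9 reads each. All transfected samples lay below all DU145KO samples. OVOL2 was lower by -1.97 ± 0.35 on the log2 scale in DU145KO+α2 (3.92-fold, adjusted p = 0.00231) and by -1.72 ± 0.35 in DU145KO+vector (3.30-fold, adjusted p = 0.0146). These 2 calls share the DU145KO samples, and the gene passed the filter only because all 4 DU145KO samples exceeded its limit of 0.608 CPM. Without a filter, over 21039 genes, the adjusted p was 0.00188 and 0.0144. The call in DU145KO+vector was lost without its replicate 2 (adjusted p = 0.0566). The transfected lines did not differ detectably from each other (-0.25 ± 0.44, 95% interval -1.17 to 0.68, adjusted p = 0.797). Exons of OVOL2 share 59 bases (2.68%) with SNX5 on the same strand, which had 1511 to 2263 reads, and reads of that stretch cannot be assigned to either gene with certainty.

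GRHL2 (chr8:101492439-101669726, plus strand), a transcription factor that keeps epithelial junction genes active, was at or near the floor everywhere. It had 1, 3, 1 and 4 reads in replicates 1 to 4 of DU145KO, 9 in all. In DU145KO+α2 and in DU145KO+vector it had a single read each, in replicate 1. OVOL1 (chr11:65787063-65797214, plus strand), the paralog of OVOL2, had 1, 3, 1 and 2 reads in DU145KO, 2, 1, 3 and 0 in DU145KO+α2, and 1, 1, 0 and 1 in DU145KO+vector. A count of 0 allows up to 3 reads. For GRHL2 the ratio of summed reads to DU145KO, scaled to library size, was 0.105 in DU145KO+α2 (exact 95% interval 0.00239 to 0.756) and 0.113 in DU145KO+vector (0.00257 to 0.814), and these intervals leave out the spread between samples. In the edgeR fit without a filter, which includes that spread, neither gene was called in any comparison. The adjusted p against DU145KO was 0.158 in DU145KO+α2 and 0.281 in DU145KO+vector for GRHL2, and 0.924 and 0.704 for OVOL1.

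ZEB2 (chr2:144364364-144521057, minus strand), a repressor of epithelial genes, moved opposite to OVOL2. DU145KO samples had 0.859, 0.488, 0.369 and 0.644 CPM, from 6 to 13 reads. DU145KO+vector samples had 1.66, 1.79, 1.09 and 2.62 CPM, all above DU145KO. DU145KO+α2 samples had 0.807, 0.749, 1.48 and 1.91 CPM, of which replicates 1 and 2 fell within the DU145KO range. ZEB2 was up regulated in DU145KO+vector by 1.58 ± 0.38 (3.00-fold, adjusted p = 0.0382). This call was lost without replicate 2 or 3 of DU145KO (adjusted p = 0.118 and 0.0905), without replicate 2 or 4 of DU145KO+vector (0.0822 and 0.124), and with limma (0.0532). In DU145KO+α2 the log2 fold change was 1.05 ± 0.39, with an adjusted p of 0.122 and of 0.0279 with the block. The interval of DU145KO+α2 against DU145KO+vector was -1.25 to 0.18. ZEB2 exceeded the filter's limit of 0.608 CPM in 2 DU145KO samples and in all 4 samples of each transfected line. In the edgeR fit without a filter, over 21039 genes, the adjusted p against DU145KO was 0.113 in DU145KO+α2 and 0.0209 in DU145KO+vector.

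ZEB1 (chr10:31318495-31529814, plus strand) was the more abundant of the ZEB genes per length, with a mean RPKM of 3.12 in DU145KO against 0.0502 for ZEB2. Its CPM was 14.9, 22.0, 24.8 and 19.0 in DU145KO, 20.0, 27.2, 29.7 and 31.7 in DU145KO+α2, and 18.3, 24.8, 27.2 and 27.2 in DU145KO+vector. The ranges of the 3 lines overlapped, and replicate 1 was the lowest sample in each. Within a replicate number both transfected samples exceeded DU145KO in 4 of 4 cases, by 0.26 to 0.74 on the log2 scale in DU145KO+α2 and by 0.14 to 0.52 in DU145KO+vector. The fitted log2 fold changes were 0.43 ± 0.17 and 0.27 ± 0.17, with adjusted p = 0.163 and 0.522 without the block, and 0.000438 and 0.0266 with it. The ratio of OVOL2 to ZEB2 on the RPKM scale was 8.20 to 20.9 in DU145KO, 0.627 to 3.34 in DU145KO+α2 and 0.627 to 2.97 in DU145KO+vector. This ratio restates the values of the 2 genes given above and is not a further result. It rests on 3 to 9 reads of OVOL2 in each transfected sample and 6 to 13 reads of ZEB2 in each DU145KO sample. Each gene passed the filter only with samples of the lines where it was higher.

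**Figure D3:**
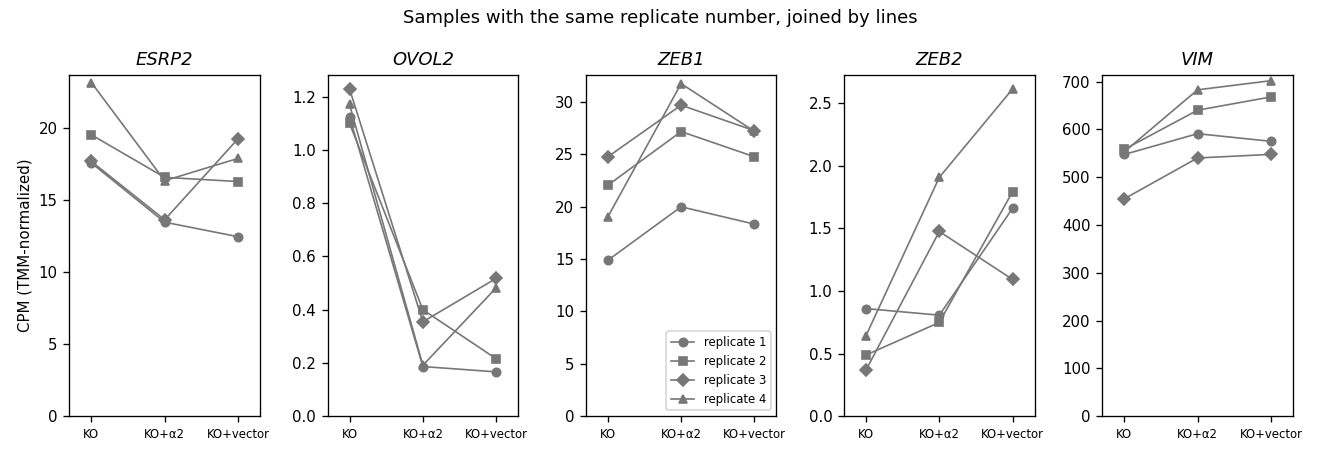
TMM-normalized CPM of ESRP2, OVOL2, ZEB1, ZEB2 and VIM, with the samples that carry the same replicate number joined by a line. ZEB1 and VIM rise from DU145KO to each transfected line in 4 of 4 replicates although the lines overlap, and ESRP2 falls from DU145KO to DU145KO+α2 in 4 of 4.

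SNAI1 (chr20:49982980-49988886, plus strand) and SNAI2 (chr8:48917598-48921740, minus strand), the zinc finger repressors Snail and Slug, were not called in any comparison, with or without the block. SNAI1 had 4.56, 2.38, 2.58 and 3.69 CPM in DU145KO replicates 1 to 4. The DU145KO+α2 samples had 3.10, 3.15, 2.72 and 4.14 CPM, and the DU145KO+vector samples 3.71, 3.88, 3.16 and 3.79 CPM. SNAI2 had 1.32, 0.733, 2.33 and 2.11 CPM, then 1.24, 0.699, 1.48 and 1.27 CPM, then 1.61, 1.51, 1.03 and 0.964 CPM in the same order of lines. All lines overlapped for both genes. Against DU145KO the 95% interval of SNAI1 was -0.46 to 0.43 in DU145KO+α2 and -0.30 to 0.58 in DU145KO+vector. That of SNAI2 was wider, at -1.20 to 0.23 and -1.06 to 0.37, so that a change of 2-fold in SNAI2 is inside both of its intervals.

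VIM (chr10:17228241-17237593, plus strand), the vimentin gene, was by far the most abundant member, with mean RPKM values of 245 (DU145KO), 287 (DU145KO+α2) and 291 (DU145KO+vector). DU145KO samples had 548, 558, 455 and 553 CPM, DU145KO+α2 samples 591, 640, 540 and 683 CPM, and DU145KO+vector samples 575, 668, 548 and 702 CPM. The ranges overlapped through replicate 3, which was the lowest of each line. VIM was higher than DU145KO in 4 of 4 same-numbered samples of each transfected line, by 0.22 ± 0.10 on the log2 scale in DU145KO+α2 (adjusted p = 0.234, with the block 0.00638) and by 0.24 ± 0.10 in DU145KO+vector (adjusted p = 0.278, with the block 0.00612). Exons of VIM overlap those of VIM-AS1 on the opposite strand over 12.7% of their length, and VIM-AS1 had 40 to 118 reads per sample.

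Genes that carry out epithelial functions, the known targets of these regulators, were lower in both transfected lines. Of 28 epithelial effector genes, 27 were tested and RAB25, with at most 3 reads, was not. Against DU145KO, 17 of them were down regulated and 0 up regulated in DU145KO+α2, with a median log2 fold change of -0.79, where 5.08% of all genes were lower, 3.09% were higher and the median of all genes was -0.0031. In DU145KO+vector 10 were down regulated and 0 up regulated, with a median of -0.28, where 1.84% of all genes were lower and 0.496% higher. AP1M2 and PRSS8 passed the filter only with the DU145KO samples. Without them 16 and 9 of 25 genes were lower, and the medians were -0.68 and -0.28. The 2 comparisons share the DU145KO samples, and no test over the list was made. This list and the other gene lists below were chosen with earlier results of these data known. Their counts beside the shares of all genes are therefore a description and not independent support.

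The genes lower in both lines were AP1M2, CLDN7, DSP, EPCAM, ERBB3, MAL2, MARVELD3, SPINT1 and ST14, 9 in all, or 8 without AP1M2, which passed the filter only with the DU145KO samples. ST14, which encodes the membrane protease matriptase, had 40.4, 29.5, 27.1 and 41.6 CPM in DU145KO replicates 1 to 4. The DU145KO+α2 samples had 6.95, 5.24, 3.42 and 4.58 CPM, and the DU145KO+vector samples 13.8, 10.6, 13.3 and 9.64 CPM. Its 3 lines did not overlap, and the log2 fold change against DU145KO was -2.78 ± 0.20 and -1.55 ± 0.19. SPINT1, the inhibitor of matriptase, was lower by -1.35 ± 0.13 and -0.82 ± 0.12. DSP, the desmosomal plaque protein desmoplakin, had 150 to 186 CPM in DU145KO, 49.0 to 72.4 CPM in DU145KO+α2 and 42.7 to 63.9 CPM in DU145KO+vector, and was lower by -1.44 ± 0.14 and -1.66 ± 0.14. The tight junction gene CLDN7 was lower by -1.57 ± 0.13 and -1.14 ± 0.13, and EPCAM, an adhesion molecule of epithelial surfaces, by -1.14 ± 0.11 and -0.83 ± 0.11. The adjusted p was at most 0.0024 in both comparisons for ST14, SPINT1, DSP, CLDN7 and EPCAM. For ERBB3, MAL2 and MARVELD3 it was 0.00048, 0.0217 and 0.000197 in DU145KO+α2 and 0.0485, 0.0153 and 0.00295 in DU145KO+vector.

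CDH1, the epithelial cadherin, is named here after its values were seen. It measured 133, 127, 118 and 161 CPM in DU145KO replicates 1 to 4. The DU145KO+α2 samples had 74.7, 72.7, 51.0 and 46.8 CPM, and the DU145KO+vector samples 83.4, 116, 99.3 and 101 CPM. The lines did not overlap. CDH1 was down regulated in DU145KO+α2 by -1.13 ± 0.16 (adjusted p = 0.00054), whereas in DU145KO+vector the log2 fold change was -0.43 ± 0.15 and did not pass the test (adjusted p = 0.189).

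Between the transfected lines themselves, where no member was called, 10 epithelial effectors were lower and 1 was higher in DU145KO+α2, and 16 were not called. The background was 5.95% of all genes lower and 5.96% higher. With the block the counts were 15 lower and 3 higher, where 26.5% of all genes were called in either direction. The lower genes included the tight junction protein TJP3 (-0.95 ± 0.15) and ST14 (-1.23 ± 0.21). The gene that was higher was CLDN4, a claudin, at 158 to 201 CPM in DU145KO+α2, 57.7 to 107 CPM in DU145KO+vector and 129 to 217 CPM in DU145KO (1.07 ± 0.19 between the transfected lines, adjusted p = 0.00279).

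**Figure D4:**
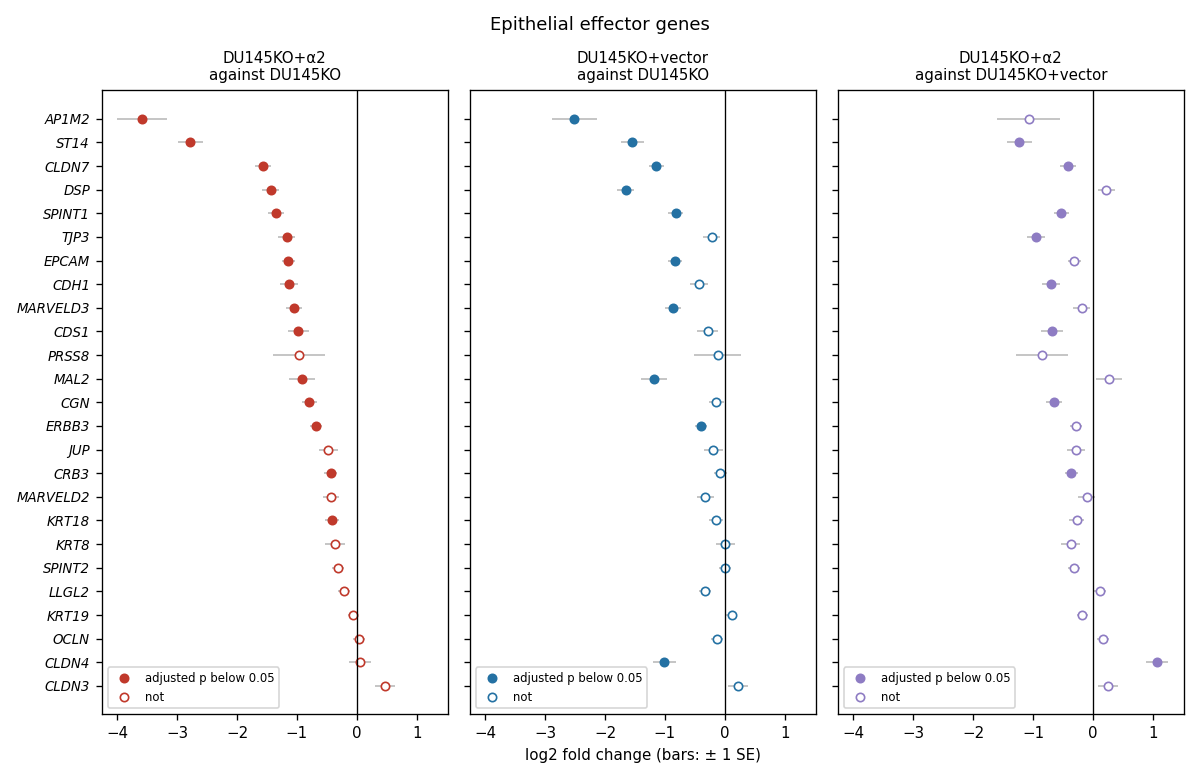
Log2 fold change of 25 of the 27 epithelial effector genes tested, with bars of ± 1 SE, in each of the 3 comparisons; filled points have an adjusted p below 0.05 and genes are ordered by DU145KO+α2 against DU145KO. There 15 filled points lie left of 0, against 10 for DU145KO+vector, and CLDN4 is the filled point on the right between the transfected lines.

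The hexamer that ZEB and SNAI proteins read, CAGGTG or its reverse complement CACCTG, was counted in the 250 bases before each start in a RefSeq promoter table (GRCh38.p14). Of the members, ZEB1, ZEB2 and VIM were in the table. The hexamer was found before 2 of the 7 starts of ZEB1 and not before those of ZEB2 and VIM. Of the epithelial effectors, 15 were in the table and 10 of these (66.7%) held the hexamer before at least 1 start, against 20.6% of all 27305 genes in the table. The shares depend on how many starts a gene has and are given without a test, and a match of letters is not evidence of binding. The stretches of 30 bases below hold the match nearest to a start in ZEB1 and in the 4 genes lower in both lines that the table includes. They are written 5′ to 3′ on the strand of the gene with the hexamer in capitals. Of the 10 epithelial effectors that held the hexamer, these 4 were called lower in both lines. Against DU145KO the others of the 10 were lower in DU145KO+α2 only, not called or not tested. Of the effectors in the table, 8 were lower in DU145KO+α2 than in DU145KO, and 7 of these (87.5%) held the hexamer. All 4 that were lower in both lines held it. These shares rest on few genes and were not tested. Repression through the hexamer was not tested.
ZEB1: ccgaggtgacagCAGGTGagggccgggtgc
AP1M2: acaCACCTGggctctCACCTGggcgcaggc
CLDN7: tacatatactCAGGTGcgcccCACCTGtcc
DSP: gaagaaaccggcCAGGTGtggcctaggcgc
SPINT1: tcccgggctgatCAGGTGtgtctcctcctc

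The ZEB1 stretch (chr10:31318348-31318377, plus strand) has its hexamer 57 bases before the start. In AP1M2, a clathrin adaptor subunit of epithelial cells, 3 hexamers lay 57, 27 and 15 bases before the start, and the nearest 2 are shown (chr19:10587313-10587342, minus strand). CLDN7 had 4 before the second of its starts and none before the first (chr17:7262479-7262508, minus strand). DSP had 2, of which the nearest is 85 bases away (chr6:7541574-7541603, plus strand), and SPINT1 had 1 at 26 bases before its second start (chr15:40844439-40844468, plus strand). CRB3, which was not lower in both lines, had 5 hexamers before its start. Its log2 fold change was -0.44 ± 0.11 in DU145KO+α2 (adjusted p = 0.0191) and -0.07 ± 0.11 in DU145KO+vector (adjusted p = 0.817). AP1M2 had the lowest log2 fold change of the list against DU145KO in both lines, but passed the filter only with the DU145KO samples. It rests on 2 to 7 reads per DU145KO+α2 sample and 3 to 16 per DU145KO+vector sample. Its DU145KO replicates 1 to 4 had 5.09, 3.17, 2.21 and 2.46 CPM. The DU145KO+α2 samples had 0.434, 0.250, 0.236 and 0.127 CPM, and the DU145KO+vector samples 0.886, 0.646, 0.460 and 0.206 CPM (log2 fold change -3.58 ± 0.41 and -2.51 ± 0.37, adjusted p = 7.15e-05 and 0.00177). Without a filter the adjusted p was 2.27e-06 and 0.000197. Its full window (chr19:10587313-10587562, minus strand) is given because it holds 3 hexamers and has only 3 of its bases in annotated exons, while the windows of ZEB1, CLDN7, DSP and SPINT1 shown in part lie largely or wholly in exons.
AP1M2, 250 bases: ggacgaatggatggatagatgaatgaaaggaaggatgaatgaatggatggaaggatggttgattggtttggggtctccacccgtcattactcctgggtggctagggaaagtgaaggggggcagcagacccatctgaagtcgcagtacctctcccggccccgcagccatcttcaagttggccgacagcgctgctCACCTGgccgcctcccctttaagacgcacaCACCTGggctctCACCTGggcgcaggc

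Mesenchymal effector genes were called in both directions. Of 25, 16 were tested, and CDH2, CDH11, MMP2 and THY1 had no read in any sample. Against DU145KO, 3 were higher (FBN1, LOX and TGFB1I1) and 2 lower in DU145KO+α2, with a median log2 fold change of -0.02. In DU145KO+vector 0 were called by edgeR and by limma, 1 by DESeq2, and 4 had an unadjusted p below 0.05. LOX, which cross-links collagen, was up regulated in DU145KO+α2 by 0.99 ± 0.25 against DU145KO (adjusted p = 0.0256) and by 1.16 ± 0.26 against DU145KO+vector (adjusted p = 0.00874). FBN1, which encodes the matrix protein fibrillin, was up regulated by 0.69 ± 0.13 against DU145KO (adjusted p = 0.00322). The collagen gene COL6A1 went down in DU145KO+α2, by -0.34 ± 0.07 and -0.47 ± 0.07 in the same comparisons, and fibronectin (FN1) was lower than in DU145KO+vector by -0.51 ± 0.12 (adjusted p = 0.0131). With the block 9, 8 and 2 of the 16 genes were called in DU145KO+α2 against DU145KO, DU145KO+α2 against DU145KO+vector and DU145KO+vector against DU145KO. In the same order 22.3%, 26.5% and 13.4% of all genes were called with the block, and 8.17%, 11.9% and 2.34% without it.

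Other transcription factors of the mesenchymal state showed changes in DU145KO+α2. Of 12, 7 were tested, and TWIST1 had no read. FOXC1 had 4.34 to 7.94 CPM in DU145KO+α2, 3.37 to 3.52 CPM in DU145KO+vector and 1.90 to 3.28 CPM in DU145KO, and was up regulated by 1.18 ± 0.20 against DU145KO (adjusted p = 0.00144) and by 0.86 ± 0.19 against DU145KO+vector (adjusted p = 0.00804). TWIST2 was higher by 0.47 ± 0.13 and 0.52 ± 0.13 in the same comparisons. In DU145KO+vector 0 of the 7 were called by edgeR, limma or DESeq2 and 0 had an unadjusted p below 0.05. Of 10 other epithelial transcription factors, 7 were tested. ELF3, an ETS factor of epithelia, was lower in both transfected lines, by -0.40 ± 0.08 in DU145KO+α2 (adjusted p = 0.00386) and -0.34 ± 0.08 in DU145KO+vector (adjusted p = 0.0308). GATA3 was higher in DU145KO+α2 than in DU145KO+vector by 0.82 ± 0.24 (adjusted p = 0.0365). With the block 4 and 3 of the 7 were called against DU145KO and 3 between the transfected lines. The shares of all genes called were 22.3%, 13.4% and 26.5% in this order with the block, and 8.17%, 2.34% and 11.9% without it.

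The total RNA levels of genes whose exons ESRP1 and ESRP2 are known to regulate gave no call. All 14 genes of this list were tested and 0 were called in each comparison by edgeR, limma or DESeq2, with 0, 1 and 3 at an unadjusted p below 0.05 in DU145KO+α2 against DU145KO+vector, DU145KO+α2 against DU145KO and DU145KO+vector against DU145KO. With the block 2, 2 and 3 were called. Of all genes 26.5%, 22.3% and 13.4% were called with the block in the same order, and 11.9%, 8.17% and 2.34% without it. FGFR2, a growth factor receptor with an ESRP-dependent exon, had 3.99 to 15.7 CPM in DU145KO, 5.08 to 8.52 CPM in DU145KO+α2 and 3.16 to 6.19 CPM in DU145KO+vector, and its log2 fold change against DU145KO was -0.59 ± 0.34 and -0.93 ± 0.35 (adjusted p = 0.364 and 0.221, with the block 0.0300 and 0.00281). CD44, which has ESRP-dependent variant exons, differed by -0.07 ± 0.18 and -0.13 ± 0.18. FGFR2 and CD44 are named after their values were seen. Counts per gene do not show which exons were included, and splicing was not analysed here.

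Of 12 other splicing regulators linked to the transition, 0 were called against DU145KO in either line by edgeR or limma. DESeq2 called 0 in DU145KO+α2 and 1 in DU145KO+vector, and 0 and 3 had an unadjusted p below 0.05. With the block 1 and 3 were called. Against DU145KO 22.3% and 13.4% of all genes were called in these lines with the block, and 8.17% and 2.34% without it. Between the transfected lines 11.9% of all genes were called without the block. Between the transfected lines MBNL3 (0.59 ± 0.17) and MBNL2 (0.30 ± 0.09) were higher and MBNL1 (-0.27 ± 0.08) was lower in DU145KO+α2, members of the muscleblind family of splicing factors. Of 8 corepressors that work with ZEB and SNAI proteins, CTBP1 was higher in DU145KO+α2 than in DU145KO+vector by 0.24 ± 0.07 (adjusted p = 0.0390). Against DU145KO 0 corepressors were called in either line by edgeR, limma or DESeq2, and 0 and 1 had an unadjusted p below 0.05.

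The genes whose levels followed ESRP1 most closely over the 12 samples were HLA-DPA1, ST14, FANCF, HLA-DRA and RNF128. Likeness was measured as the root mean square difference between log2 CPM profiles centred on their own means, among the 12850 genes that averaged 1 or more in log2 CPM. It was 0.568 for HLA-DPA1, 0.662 for ST14, 0.676 for FANCF, 0.684 for HLA-DRA and 0.685 for RNF128, against a median of 1.5 over these genes. A profile without any change would score 1.49, the root mean square of the centred ESRP1 profile itself. HLA-DPA1 and HLA-DRA, chains of class II antigen-presenting molecules, averaged 6.60 and 15.8 CPM in DU145KO. Their means were 0.614 and 1.62 CPM in the DU145KO+α2 samples, and 0.798 and 1.60 CPM in the DU145KO+vector samples. Among the members the same measure was smallest for OVOL2, at 0.791, and largest for ZEB2, at 2.08. All profiles come from the same 12 libraries, and the order is a description.

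Most genes around ESRP1 had log2 fold changes near 0. Of 40 tested genes that start within 5 Mb of it, 2 were called in DU145KO+α2 against DU145KO (5.00%) and 1 in DU145KO+vector against DU145KO (2.50%), and the medians of their log2 fold changes were -0.04 and -0.01. The nearest tested genes on either side, KIAA1429 and DPY19L4, differed by -0.06 ± 0.08 and 0.08 ± 0.07 in DU145KO+α2 and by 0.04 ± 0.08 and 0.02 ± 0.07 in DU145KO+vector. The genes called were SDC2, the cell surface proteoglycan syndecan 2, at -5.15 ± 0.75 and NIPAL2 at -0.35 ± 0.10 in DU145KO+α2, and MATN2 at 0.65 ± 0.14 in DU145KO+vector. SDC2 had 20, 18, 33 and 13 reads in DU145KO and 2, 0, 0 and 0 in DU145KO+α2. Its fitted value therefore depends on the prior count, and the ratio of the summed reads, scaled to library size, was 0.0225 with an exact 95% interval of 0.00268 to 0.0837 that covers counting error only. Around GRHL2, on the same chromosome, 37 genes had medians of -0.01 and -0.04. Of these, 4 were called in DU145KO+α2 (10.8%), all lower, and 1 in DU145KO+vector (2.70%), against 8.17% and 2.34% of all genes. They were SDC2, NIPAL2 and MATN2 again, which lie within 5 Mb of both genes, and SPAG1 (-0.61 ± 0.12) and PABPC1 (-0.40 ± 0.11) in DU145KO+α2. The nearest tested neighbours of GRHL2, ZNF706 and RRM2B, differed by -0.16 and 0.05 in DU145KO+α2 and by 0.04 and -0.02 in DU145KO+vector.

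**Figure D5:**
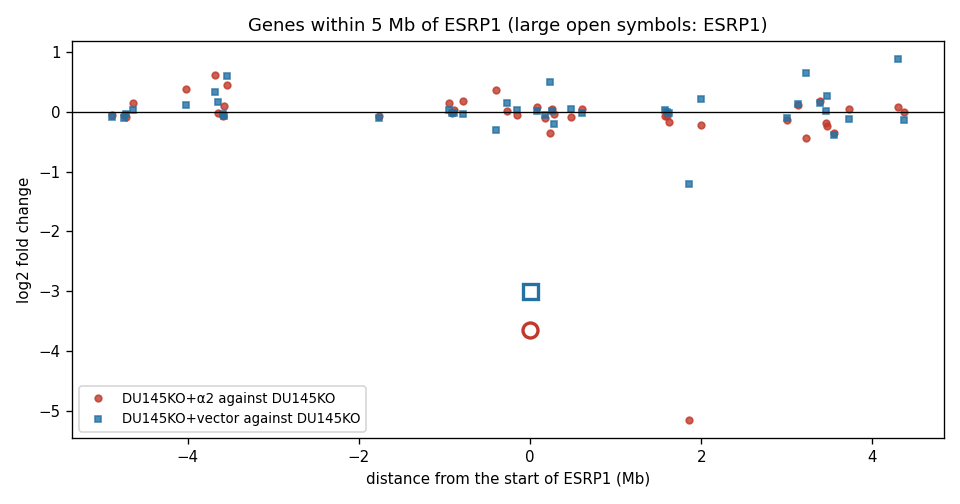
Log2 fold change against DU145KO of the 40 tested genes within 5 Mb of ESRP1, by the distance of their start from that of ESRP1 in Mb, with ESRP1 as large open symbols. ESRP1 lies at -3.65 and -3.00 among neighbours near 0, and SDC2 at -5.15 in DU145KO+α2 is the neighbour farthest from 0.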

How the data were processed

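RNA of 12 spheroid samples, 4 of each line, was sequenced by the authors with stranded mRNA libraries and single-end reads. The authors aligned the reads to hg38 with TopHat 2.1.0, kept unique alignments and counted them per known gene with Subread 1.5.0. These raw read counts were deposited by the authors, and all tests used them. The authors also deposited RPKM values, counts after TMM normalization divided by 1 length per gene, which were used only for levels between genes.

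Tests on the counts were run with edgeR 4.0.16 in R 4.3.3 (filterByExpr, minimum count 10, TMM, robust quasi-likelihood test), limma 3.58.1 and DESeq2 1.42.0. The 14732 genes kept were tested in 1 model of all 12 samples, with two-sided p-values adjusted by Benjamini-Hochberg. Standard errors and 95% intervals come from this fit, and intervals and floors of 3 counts cover counting error only where no replicates enter. The script was tested on simulated counts. Differences between replicates of a line exceeded sampling noise (chi-square divided by its degrees of freedom, 6.98 to 23.7), and none was counted as a duplicate.

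The replicate numbers are those in the sample titles. Samples with the same number deviated together in all 12 pairs of lines and numbers (correlation 0.135 to 0.554), and the number was taken as a pairing, used as a block in an alternative fit. The other alternatives were DESeq2's size factors, library size alone, the DESeq2 Wald test, voom with limma, no filter, at least 10 counts in every sample, the compared lines only, a fold above 2 in addition, and the removal of single samples.

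The members and the gene lists were chosen with earlier results of these data known. Named are all members, ITGA2, up to 4 genes per list and comparison with the smallest adjusted p below 0.05, the 5 genes nearest to the profile of ESRP1, and the nearest tested neighbours of ESRP1 and GRHL2. Genes outside this rule were named after their values were seen: PECAM1, PTPRC, CD3E, DCN and LUM, KRT8 and KRT18, CDH1, AP1M2, PRSS8, RAB25, CRB3, ERBB3, MAL2, MARVELD3, CLDN4, CDH2, CDH11, MMP2, THY1, TWIST1, FGFR2, CD44, SDC2, NIPAL2, MATN2, SPAG1 and PABPC1, and the genes whose exons overlap a member. Some genes that the rule names are not reported here. Positions are from GENCODE v44, matched for 98.1% of the genes tested, and promoter sequences from RefSeq. The scale of RPKM depends on the authors' gene lengths.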

Additional observations from a re-analysis of the deposited data

Results flagged for a closer look

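In 3 of 33 groups of 4 samples (the 10 members and ITGA2 in each line) 1 sample stood apart from the other 3 by Dixon's test on CPM, where 1.65 would be flagged by chance. GRHL2 in replicate 1 of DU145KO+α2 and in replicate 1 of DU145KO+vector had a ratio of gap to range of 1, from a single read beside samples with 0. VIM in replicate 3 of DU145KO had a ratio of 0.897, at 455 CPM beside 548 to 558 CPM in the other samples of that line. Without this sample the log2 fold change of VIM against DU145KO was 0.15 in DU145KO+α2 and 0.17 in DU145KO+vector.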

How the results depend on the processing

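The fall of OVOL2 in DU145KO+α2 kept its direction and its call in every alternative that could be fitted, with an adjusted p of at most 0.0106. Requiring 10 or more counts in all samples removed OVOL2 and ZEB2 and left 0 members called against DU145KO in either line. With limma 1 member was called in DU145KO+vector against DU145KO, and with 1 sample left out 0 to 2 were called. The replicate block raised the members called to 5 in DU145KO+α2 and 4 in DU145KO+vector against DU145KO, and the genes called to 3911 between the transfected lines, 3286 in DU145KO+α2 and 1980 in DU145KO+vector against DU145KO. The block changed no other call among the members than those given above, and for ITGA2 in DU145KO+vector against DU145KO it gave -0.23 with an adjusted p of 0.0402. A fold above 2 left 325, 309 and 123 genes in the same order, DESeq2 called 587 in DU145KO+vector against DU145KO, and leaving out samples gave 160 (without replicate 3 of DU145KO+vector) to 528 (without replicate 4 of DU145KO), with 177 to 193 without replicate 1 or 2 of DU145KO or replicate 2 or 4 of DU145KO+vector.

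Directions that turned were all in log2 fold changes without a call. SNAI1 in DU145KO+α2 against DU145KO was 0.0201 with limma, 0.0022 with the replicate block, and -0.14 to 0.19 with 1 sample left out. In DU145KO+α2 against DU145KO+vector the ranges with 1 sample left out were -0.49 to 0.0392 for OVOL2, -0.27 to 0.0559 for SNAI2 and -0.0796 to 0.0396 for VIM. The cause of these shifts was not tested. Depth limits ESRP1 and OVOL2 in the transfected lines, where 3 to 14 reads carry each value, and GRHL2 and OVOL1 throughout. No filter, library size and DESeq2's size factors changed no call of a member. GRHL2 and OVOL1 gave no value in fits with a filter.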
